A study of Mus musculus with 12 samples.

Results

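The genes described here are 10 genes of tryptophan catabolism and of receptors for tryptophan metabolites, namely *Gpr35*, *Ido1*, *Ido2*, *Tdo2*, *Afmid*, *Kmo*, *Kynu*, *Haao*, *Il4i1* and *Nr1i2*. They were chosen by symbol from the 54532 genes of the count table, by a rule that uses no measured level, although earlier results of these data were known when they were chosen. Of the 10, 6 (*Gpr35*, *Ido1*, *Afmid*, *Kmo*, *Kynu* and *Haao*) had more than 0.5 CPM (read counts scaled to library size) in at least 2 of the 12 libraries and were tested. The other 4 (*Ido2*, *Tdo2*, *Il4i1* and *Nr1i2*) had too few counts and are given as counts without a test.

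The study asked how indole-3-propionic acid (IPA), a tryptophan metabolite made by gut bacteria, acts on the generation of immunosuppressive myeloid cells from bone marrow. Cells from the marrow of wild-type C57BL/6 mice were grown in medium with GM-CSF and IL-6, cytokines that drive myeloid differentiation, and harvested on day 5 for mRNA sequencing. Of the cultures, 4 received vehicle (0.1% DMSO), 4 received 10 µM IPA and 4 received 50 µM IPA, and all were wild type and received both cytokines. The labels do not say whether the 4 cultures of a group came from separate mice, so p-values measure the spread between these cultures only. The study's own RNA-seq analysis used the lower dose, since fewer cells were viable at the higher dose, and viability cannot be read from these libraries.

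Library totals lay between 20451312 and 28038612 counts on genes. The first principal component (27.0% of the variance) placed the 4 libraries at 50 µM apart from the other 8. Myeloid markers were abundant, with 10 neutrophil markers summing to between 14126 and 28443 CPM per library, whereas 6 erythroid markers summed to between 0.581 and 1.30 CPM and 6 T and NK cell markers to between 2.53 and 5.24 CPM. Levels are CPM after TMM normalization, given as mean ± SD over 4 libraries. Changes are log2 fold changes from edgeR's quasi-likelihood test on the 8 libraries compared, and a gene was called at an adjusted p under 0.05 over the 14894 genes tested.

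In the kynurenine pathway, IDO1, IDO2 or TDO2 opens the ring of tryptophan, and AFMID, the formamidase, releases kynurenine. KMO then hydroxylates kynurenine, KYNU cleaves the side chain and HAAO makes the precursor of quinolinic acid, which leads to NAD. Transaminases turn kynurenine into kynurenic acid instead, a proposed ligand of GPR35, a receptor of gut and myeloid cells that signals through Gi and G13 proteins. IL4I1, a secreted oxidase, converts tryptophan to indole-3-pyruvate. PXR, the product of *Nr1i2*, is a nuclear receptor of liver and gut that binds drugs and, among bacterial metabolites, IPA.

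The sequences before the annotated starts of *Gpr35* and *Kmo* are shown because these genes had the largest changes of the 6 tested at 50 µM against vehicle. RefSeq (GRCm38.p6) gave the 250 bases before the start of transcription for 7 of the 10 genes, and *Gpr35* has a pair of starts. All are on the plus strand of chromosome 1, and capitals mark matches to the motifs named after them.
Gpr35, chr1:92972869-92973118: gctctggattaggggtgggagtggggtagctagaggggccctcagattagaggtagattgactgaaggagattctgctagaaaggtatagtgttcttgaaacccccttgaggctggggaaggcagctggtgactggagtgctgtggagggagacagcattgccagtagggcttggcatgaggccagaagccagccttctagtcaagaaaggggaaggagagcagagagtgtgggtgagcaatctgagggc
Gpr35, chr1:92978653-92978902: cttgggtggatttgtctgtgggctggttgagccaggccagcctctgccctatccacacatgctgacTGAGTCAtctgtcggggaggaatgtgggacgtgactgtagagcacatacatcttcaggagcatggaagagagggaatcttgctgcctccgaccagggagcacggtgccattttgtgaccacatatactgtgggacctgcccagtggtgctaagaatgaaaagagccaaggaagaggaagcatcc
Kmo, chr1:175631943-175632192: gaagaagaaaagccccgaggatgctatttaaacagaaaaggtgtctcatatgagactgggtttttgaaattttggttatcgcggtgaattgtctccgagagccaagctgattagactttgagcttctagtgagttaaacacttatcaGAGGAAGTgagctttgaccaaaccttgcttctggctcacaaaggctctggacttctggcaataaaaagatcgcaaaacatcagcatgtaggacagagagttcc
Both strands were searched for 6 motifs, chosen after the expression values were known: GCGTG (the AHR core), TTCNNNGAA (STAT), TGATGNAA (ATF4 with C/EBP), GAGGAAGT (PU.1), AGTTCA (PXR) and TGANTCA (AP-1). The second *Gpr35* sequence held 1 match to the AP-1 motif, which 6.75% of 32851 promoter sequences of this length held. The *Kmo* sequence held 1 match to the PU.1 motif, present in 2.44% of them, and the first *Gpr35* sequence held no match. Of the other promoters, those of *Haao* and *Tdo2* each held 1 match to the AHR core, a motif in 28.2% of all sequences. That of *Il4i1* held 1 match to the PU.1 motif, and those of *Afmid* and *Nr1i2* held none. A match of letters does not show that a factor binds there.

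*Gpr35*, the receptor gene, was the tested member that differed most between the groups. It lies on chromosome 1 (ENSMUSG00000026271, GRCm38, 92950865 to 92986391, plus strand). With vehicle its level was 39.9, 40.3, 47.1 and 40.5 CPM in the 4 libraries. At 10 µM it was 51.4, 56.9, 57.1 and 52.0 CPM, and at 50 µM it was 20.5, 20.2, 17.8 and 17.8 CPM. All 4 libraries at 10 µM were above those with vehicle, all 4 at 50 µM were below them, and no libraries of different groups overlapped. The means were 42.0 ± 3.43 CPM (SD, n = 4) with vehicle, 54.4 ± 3.07 CPM (SD, n = 4) at 10 µM and 19.1 ± 1.46 CPM (SD, n = 4) at 50 µM. *Gpr35* fell 2.19-fold at 50 µM against vehicle (log2 fold change -1.13, standard error 0.09, adjusted p = 5.82e-06). Against 10 µM its level at 50 µM was 2.84-fold lower (log2 fold change -1.51, standard error 0.08, adjusted p = 1.31e-08). At 10 µM the log2 fold change against vehicle was 0.37 (95% interval 0.21 to 0.54), and it did not pass the threshold (adjusted p = 0.0758). That value depended on the fit, since DESeq2 gave an adjusted p of 0.00216 and the range over 16 alternatives was 0.00216 to 0.288. In these bulk libraries, fewer cells that carry a transcript and less of it per cell cannot be told apart.

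**Figure D1:**
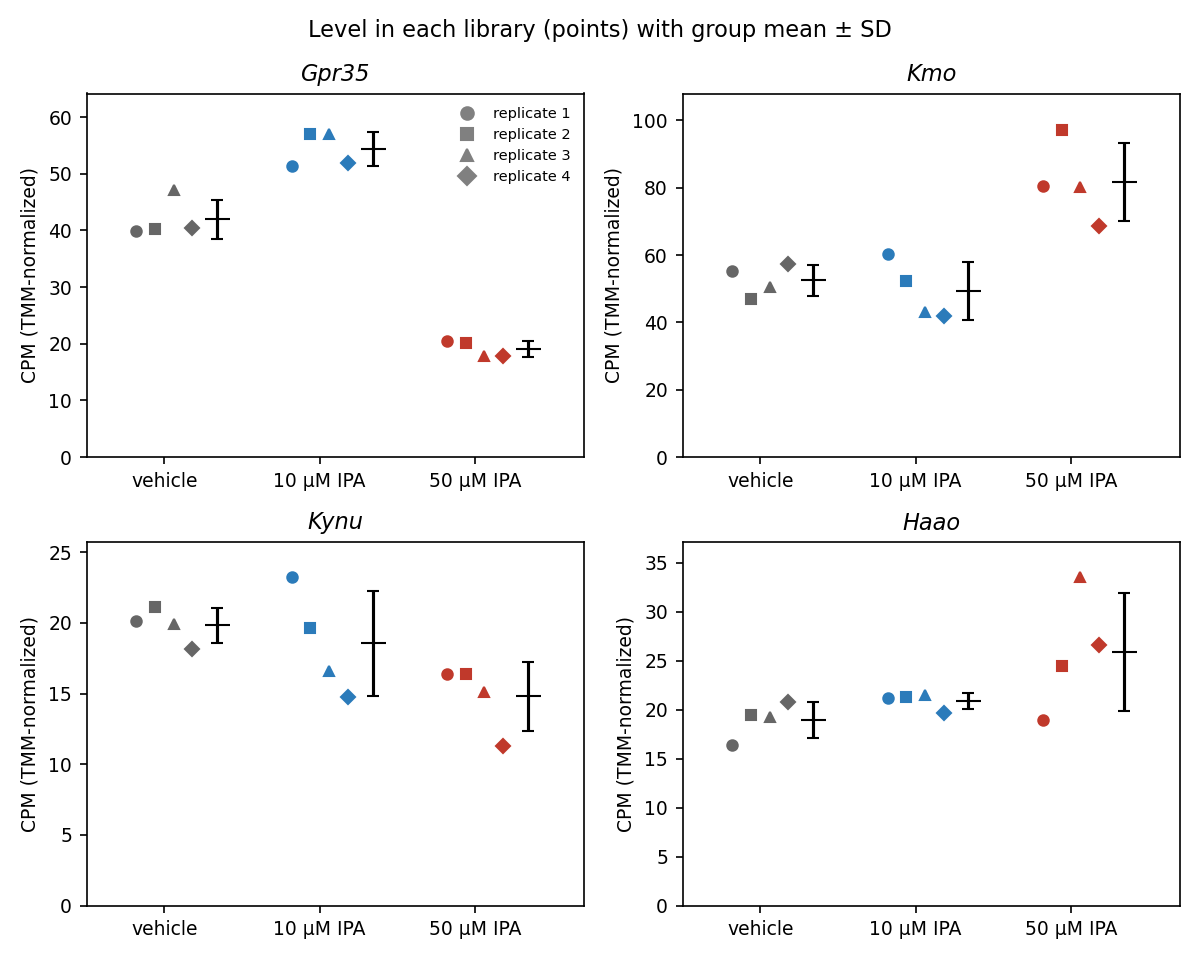
Levels of Gpr35, Kmo, Kynu and Haao in CPM (TMM-normalized, linear axes from 0) in each of the 12 libraries, grouped by treatment, with group mean ± SD as bars beside the points and symbols for replicate numbers. The 4 Gpr35 points at 50 µM lie between 17.8 and 20.5 CPM, below all others, and the 4 Kmo points at 50 µM lie between 68.7 and 97.2 CPM, above all others.

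*Nr1i2*, which encodes PXR (ENSMUSG00000022809, chromosome 16, 38248323 to 38294824, minus strand), was close to undetected. It had 3 counts in replicate 2 of the 10 µM group and 0 in the other 11 libraries. A count of 0 over the 4 libraries of a group allows up to 0.0298 CPM with vehicle and 0.0327 CPM at 50 µM (3 counts over the group, counting error only). These counts do not allow a comparison of *Nr1i2* between the groups.

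The enzymes that start tryptophan catabolism were also close to the limit of detection. *Ido1* (ENSMUSG00000031551, chromosome 8, 24584136 to 24597009, minus strand) had 4, 10, 4 and 13 counts with vehicle, 17, 14, 5 and 8 at 10 µM and 7, 17, 10 and 0 at 50 µM. The 3 groups overlapped, with means of 0.305 ± 0.172, 0.462 ± 0.227 and 0.363 ± 0.268 CPM (SD, n = 4 each). The interval of its log2 fold change was wide, -0.67 to 1.83 at 10 µM against vehicle and -1.34 to 1.86 at 50 µM against vehicle. At this depth no difference in *Ido1* was detectable.

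*Ido2*, the paralog next to it on chromosome 8 (ENSMUSG00000031549, 24531892 to 24576333, minus strand), had 3, 3, 2 and 6 counts with vehicle, 3, 0, 0 and 6 at 10 µM and 1, 8, 0 and 0 at 50 µM. *Tdo2*, the liver enzyme for the same step (ENSMUSG00000028011, chromosome 3, 81957090 to 81976202, minus strand), had no count with vehicle, 2 in 1 library at 10 µM, and 1, 1, 0 and 4 at 50 µM. *Il4i1* (ENSMUSG00000074141, chromosome 7, 44816387 to 44840809, plus strand) had 0, 0, 3 and 1 counts with vehicle, none at 10 µM, and 0, 2, 4 and 6 at 50 µM. No library held more than 8 counts of any of these genes. Of the exon bases of *Il4i1*, 83.9% also belong to exons of *Tbc1d17* on the opposite strand, which had 7532 counts over the 12 libraries. The libraries were stranded, but the strand setting of the counting is not given in the sources used here, so reads of *Il4i1* may have been left out or assigned to its neighbor.

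**Figure D2:**
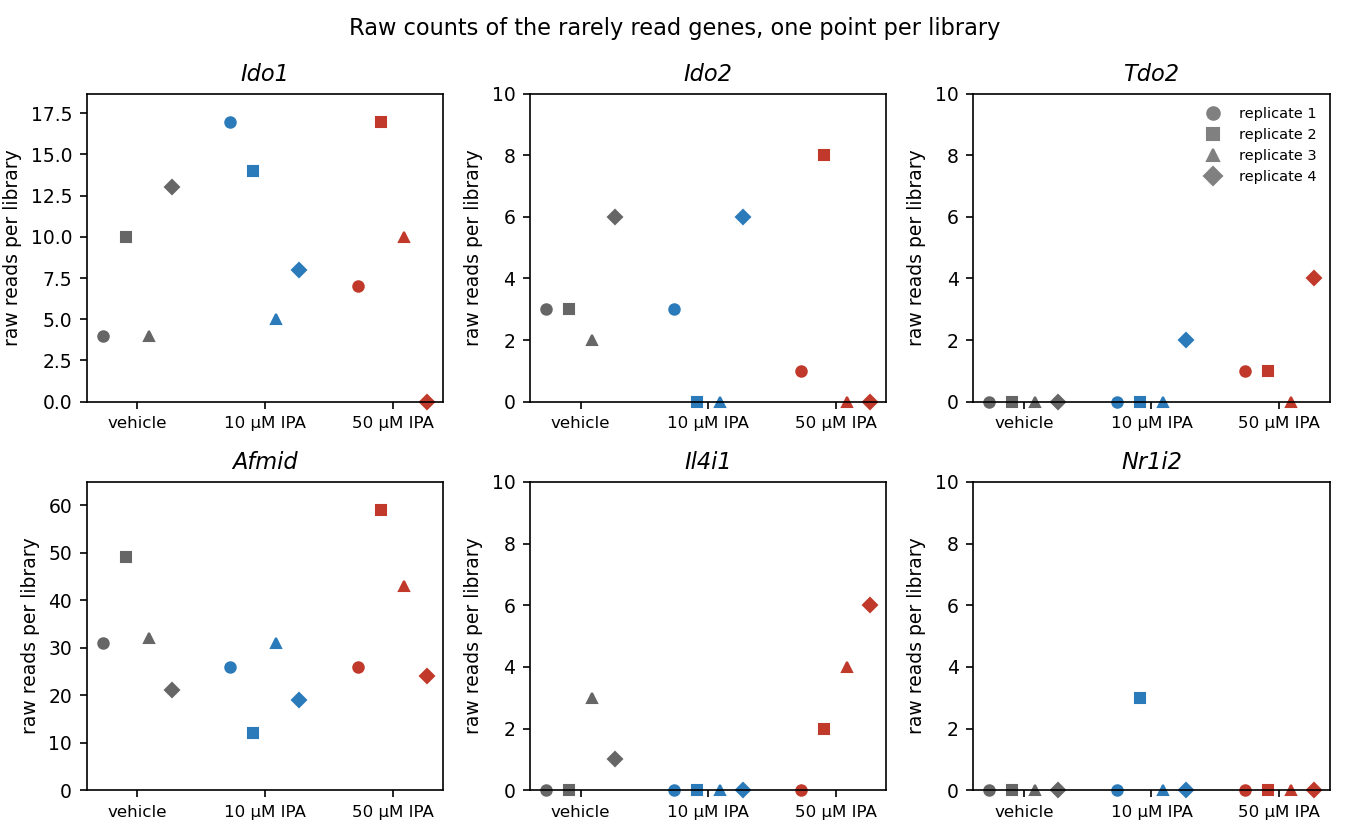
Raw counts per library, on linear axes, of the genes of the 10 with the fewest counts (Ido1, Ido2, Tdo2, Afmid, Il4i1 and Nr1i2), grouped by treatment. Afmid reaches 59 counts and Ido1 17, while the other 4 genes stay at or below 8 counts in every library and many of their points lie at 0.

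*Afmid*, the formamidase gene (ENSMUSG00000017718, chromosome 11, 117825924 to 117839908, plus strand), was expressed at a low level. Its level was 1.17, 1.82, 1.43 and 0.835 CPM with vehicle, 0.942, 0.581, 1.17 and 0.870 CPM at 10 µM, and 1.27, 2.16, 2.09 and 1.01 CPM at 50 µM. The groups overlapped in all 3 comparisons and none was called. The largest difference was between 50 µM and 10 µM, with a log2 fold change of 0.87 (95% interval 0.12 to 1.62, adjusted p = 0.112). Exon bases shared with the gene *Gm20708* on the same strand make up 44.2% of *Afmid*, and *Gm20708* had 0 counts, so reads from the shared bases may not have been counted.

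*Kmo*, the gene of kynurenine 3-monooxygenase (ENSMUSG00000039783, chromosome 1, 175620381 to 175662116, plus strand), rose at 50 µM. Its level was 55.3, 47.0, 50.4 and 57.4 CPM with vehicle and 60.2, 52.3, 43.1 and 42.0 CPM at 10 µM. At 50 µM it was 80.7, 97.2, 80.3 and 68.7 CPM, above every library of the other groups. Its mean was 52.5 ± 4.68 CPM (SD, n = 4) in vehicle cultures and 81.7 ± 11.7 CPM (SD, n = 4) at 50 µM, a 1.56-fold rise (log2 fold change 0.65, standard error 0.11, adjusted p = 0.00142). Against 10 µM (49.4 ± 8.56 CPM, n = 4) the rise was 1.66-fold (log2 fold change 0.73, standard error 0.12, adjusted p = 0.000586). Between 10 µM and vehicle the log2 fold change of *Kmo* was -0.09, with a 95% interval of -0.34 to 0.17, and it ranged from -0.20 (without 10 µM replicate 1) to -0.015 (without 10 µM replicate 4) with 1 library left out.

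*Kynu*, the gene of kynureninase (ENSMUSG00000026866, chromosome 2, 43555329 to 43682715, plus strand), went the other way at 50 µM. Its level was 20.1, 21.1, 19.9 and 18.2 CPM with vehicle, 23.2, 19.6, 16.6 and 14.7 CPM at 10 µM and 16.4, 16.4, 15.1 and 11.3 CPM at 50 µM. The libraries at 50 µM lay below those with vehicle, but they overlapped with those at 10 µM, which spread the most. *Kynu* fell from 19.8 ± 1.23 to 14.8 ± 2.41 CPM (SD, n = 4 each) at 50 µM against vehicle (log2 fold change -0.41, standard error 0.12, adjusted p = 0.0362). The call was lost on removal of any of 5 libraries. The adjusted p was 0.0776, 0.0671 and 0.0873 after removal of vehicle replicate 1, 2 or 3 in turn, with log2 fold changes of -0.42, -0.39 and -0.41. It was 0.0670 and 0.0776 after removal of 50 µM replicate 3 or 4, with log2 fold changes of -0.43 and -0.30. Against 10 µM the log2 fold change was -0.33 (95% interval -0.63 to -0.02, adjusted p = 0.149), and it was -0.19 without 10 µM replicate 1 and -0.21 without 50 µM replicate 4.

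Within the 10 µM group, the libraries with more *Kynu* also had more *Kmo*. Over all genes, the slope of log2 CPM on log2 exon length was -0.049, -0.012, 0.021 and 0.036 in replicates 1 to 4 of that group, and the levels of *Kmo* and *Kynu* in those libraries were in the opposite order. This did not hold in the other groups, since with vehicle the *Kynu* levels were in the same order as the slopes (0.039, 0.041, 0.011 and -0.038) and at 50 µM neither order was seen. With this slope as a covariate in edgeR, the change of *Kynu* between 50 µM and 10 µM had an adjusted p of 0.0447.

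*Haao*, the gene of 3-hydroxyanthranilate dioxygenase (ENSMUSG00000000673, chromosome 17, 83831156 to 83847963, minus strand), had levels of 16.4, 19.5, 19.3 and 20.8 CPM with vehicle and 21.2, 21.3, 21.5 and 19.7 CPM at 10 µM. At 50 µM the levels were 18.9, 24.4, 33.5 and 26.6 CPM, so that 3 libraries lay above all others and replicate 1 lay within the vehicle range. The log2 fold change at 50 µM against vehicle was 0.45 (standard error 0.15, adjusted p = 0.0567), just over the threshold. DESeq2 gave an adjusted p of 0.0296, and over 16 alternatives it lay between 0.0118 and 0.172, with 6 under the threshold. The highest value was that without replicate 3 at 50 µM, where the log2 fold change was 0.30, and without replicate 1 of that group it was 0.0146, with a log2 fold change of 0.57. Against 10 µM the log2 fold change was 0.31 (adjusted p = 0.129), and it was 0.17 without replicate 3 at 50 µM (adjusted p = 0.368) and 0.43 without replicate 1 (adjusted p = 0.0185). At 10 µM against vehicle it was 0.14 (95% interval -0.06 to 0.34), and 0.077 without vehicle replicate 1.

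**Figure D3:**
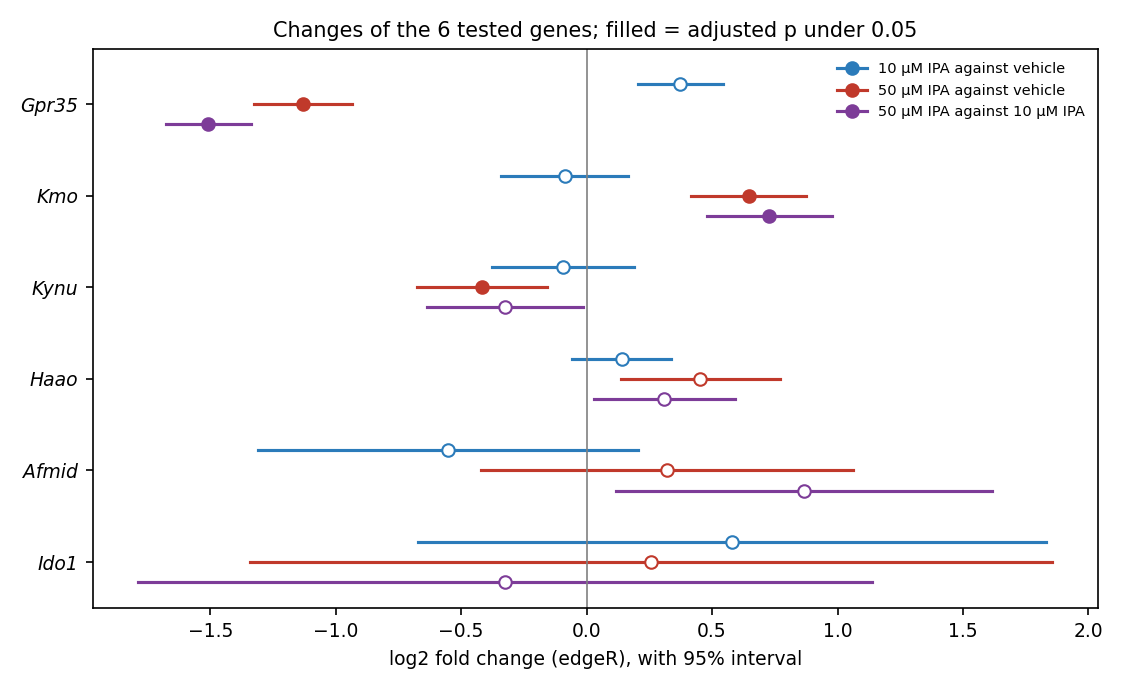
Log2 fold changes from edgeR with 95% intervals for the 6 tested genes in the 3 comparisons, with filled points for an adjusted p under 0.05. Filled points are Gpr35 (-1.13 and -1.51), Kmo (0.65 and 0.73) and Kynu (-0.41), all in comparisons with 50 µM, and the intervals of Ido1 and Afmid are the widest.

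Counted together, 3 of the 6 tested genes were called at 50 µM against vehicle (*Kmo* higher, *Gpr35* and *Kynu* lower), where 13.5% of all tested genes were called. Of the 6, 2 were called at 50 µM against 10 µM (*Kmo* higher, *Gpr35* lower), beside 15.4% of all genes. At 10 µM against vehicle edgeR called none of the 6, beside 0.410% of all genes. Of the 6, 1 had an unadjusted p under 0.05 there (*Gpr35*), DESeq2 called 1 and limma-voom called 0. The libraries of the groups compared did not overlap for 1 of the 6 genes at 10 µM against vehicle, where 6.13% of all genes did not overlap, for 3 at 50 µM against vehicle (20.0% of all genes) and for 2 at 50 µM against 10 µM (20.3%). Between 50 µM and vehicle the median log2 fold change was 0.29 for the 6 and 0.01 over all genes, but the 6 went both ways and their median lies between *Ido1* and *Afmid*, low-count genes that were not called. Both comparisons with vehicle share the same 4 vehicle libraries.

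Since *Kmo* and *Kynu* encode successive enzymes, their reads were also set against each other within each library. This ratio was chosen after the values had been seen and is given without a test. There were 2.22 to 3.16 *Kmo* reads per *Kynu* read with vehicle (mean 2.67 ± 0.392, SD, n = 4), 2.59 to 2.85 at 10 µM (2.68 ± 0.121) and 4.93 to 6.08 at 50 µM (5.56 ± 0.536). The 4 libraries at 50 µM stood apart from the other 8, and the 10 µM group varied less in this ratio, relative to its mean, than in either gene alone. *Haao* reads per *Kynu* read were 0.816 to 1.14 with vehicle, 0.913 to 1.34 at 10 µM and 1.16 to 2.35 at 50 µM, with overlap between 10 µM and both other groups.

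**Figure D4:**
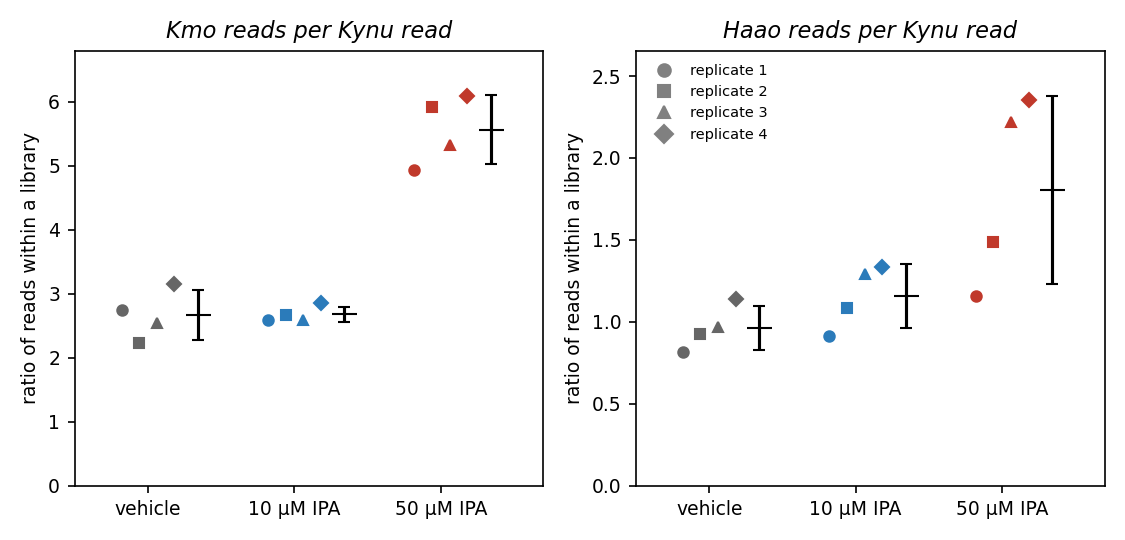
Ratio of Kmo to Kynu reads and of Haao to Kynu reads within each library, on linear axes from 0, grouped by treatment with mean ± SD. The Kmo to Kynu ratio is 4.93 to 6.08 at 50 µM and at most 3.16 in the other 8 libraries, while the Haao to Kynu ratio spreads widely at 50 µM.

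To compare levels between genes, CPM was divided by exon length in kilobases (GENCODE M21). With vehicle, *Kmo* was highest at 11.1 CPM per kb, followed by *Gpr35* at 8.67, *Haao* at 4.06 and *Kynu* at 3.22, and no libraries of neighbors in this order overlapped. *Afmid* (0.372 CPM per kb) and *Ido1* (0.167) came next and overlapped. On this scale *Kmo* was above 69.9% of the tested genes, *Gpr35* above 64.4%, *Haao* above 47.5%, *Kynu* above 42.8%, *Afmid* above 13.7% and *Ido1* above 6.96%. At 10 µM *Gpr35* (11.2 CPM per kb) and *Kmo* (10.5) overlapped at the top. At 50 µM *Kmo* (17.3) was first, and *Gpr35* (3.94) followed *Haao* (5.52), with overlap between the latter pair.

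The genes whose profile over the 12 libraries was closest to that of *Gpr35*, by the root mean square difference of centered log2 CPM among 10196 genes of at least 5 CPM, were *Ak8* (0.193), *Stac2* (0.204) and *Sdc4* (0.208). The root mean square of the *Gpr35* profile itself was 0.647. *Ak8* encodes an adenylate kinase, and its mean level was 6.88, 7.81 and 3.41 CPM with vehicle, 10 µM and 50 µM. *Stac2* (an adaptor protein) had means of 21.1, 29.2 and 7.85 CPM, and *Sdc4* (syndecan-4, a cell surface proteoglycan) had means of 54.7, 64.2 and 20.2 CPM. For *Afmid*, the nearest were *Nmnat1* (0.296), which encodes an NAD synthesis enzyme, *Adora2a* (0.297), an adenosine receptor gene, and *Rexo5* (0.314), an RNA exonuclease gene. The *Afmid* profile had a root mean square of 0.508, so its neighbors were less close. *Afmid* had only 12 to 59 counts per library and was not called in any comparison, so its profile includes much counting error.

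Another 91 genes around these pathways were listed in 9 lists, and 58 of them passed the filter. At 10 µM against vehicle edgeR called none of the 58. Of these, 6 had an unadjusted p under 0.05, limma-voom called 0 and DESeq2 called 1, *Bin1*, named here after its value was seen. Their median log2 fold change was 0.01, against -0.01 over all genes. At 50 µM, 15 of the 58 were called against vehicle (9 higher and 6 lower, beside 13.5% of all genes) and 19 against 10 µM (10 higher and 9 lower, beside 15.4% of all genes).

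The 5 tested of 9 further kynurenine pathway genes were not called in any comparison by edgeR. At 50 µM against vehicle 2 of the 5 had an unadjusted p under 0.05, and DESeq2 and limma-voom each called 1. That gene was *Got2*, whose mitochondrial aminotransferase can also make kynurenic acid, at 136 CPM with vehicle and 111 CPM at 50 µM (log2 fold change -0.29, adjusted p = 0.0503). *Acat1*, the other most abundant gene of the list, had a log2 fold change of 0.20 (adjusted p = 0.112). *Aadat*, a kynurenine transaminase gene, and *Acmsd*, which diverts the pathway away from NAD, had no read in any library.

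In NAD synthesis, 8 of 11 genes were tested, and 1 rose and 1 fell at 50 µM against vehicle. *Nadsyn1*, the last enzyme of NAD synthesis from quinolinic acid, rose from 4.89 to 7.30 CPM, a log2 fold change of 0.58 (adjusted p = 0.0459). *Nadk*, the NAD kinase gene, fell from 456 to 370 CPM, a log2 fold change of -0.30 (adjusted p = 0.00898). Against 10 µM, *Nmnat1* (0.64, adjusted p = 0.00331) and *Nadsyn1* (0.50, adjusted p = 0.0355) were higher at 50 µM and *Nampt*, the gene of the nicotinamide salvage enzyme, was lower (-0.22, adjusted p = 0.0360). The serotonin and tryptamine branch had 2 tested genes of 8, *Maoa* and *Maob*, and neither was called in any comparison or had an unadjusted p under 0.05.

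All 7 genes of tryptophan and kynurenine transport and tryptophanyl-tRNA synthesis were tested. At 50 µM against vehicle *Wars*, the cytosolic tryptophanyl-tRNA synthetase gene, rose from 71.3 to 98.9 CPM, a log2 fold change of 0.48 (adjusted p = 0.00120). *Slc3a2*, the heavy chain of the large neutral amino acid transporter, rose from 276 to 341 CPM (0.31, adjusted p = 0.00670), and *Slc16a10*, an aromatic amino acid transporter gene, fell from 51.2 to 40.0 CPM (-0.35, adjusted p = 0.0165). Against 10 µM, 3 of the 7 were higher at 50 µM and 3 were lower. Among the higher was *Slc7a5*, the light chain partner of *Slc3a2* (0.42, adjusted p = 0.00726), although its libraries overlapped between these groups.

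Of the inducers and regulators of IDO, 9 of 10 were tested. At 50 µM against vehicle *Irf8*, a transcription factor gene of the monocyte and dendritic lineages, rose from 86.6 to 114 CPM, a log2 fold change of 0.40 (adjusted p = 0.00142) and *Jak2* rose from 425 to 521 CPM (0.30, adjusted p = 0.0154). *Socs3*, a feedback inhibitor of JAK signaling, fell from 163 to 104 CPM (-0.64, adjusted p = 0.000103). The same genes were called in the same directions against 10 µM, and *Irf1* was higher as well (0.39, adjusted p = 0.00655). *Ifng*, the gene of the cytokine that induces *Ido1*, had at most 2 counts in a library.

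None of the 5 tested of 7 GPR35 signal transducers was called in any comparison by edgeR, DESeq2 or limma-voom, and 1 had an unadjusted p under 0.05, between 50 µM and 10 µM. *Gnai2*, the most abundant, had 1575 CPM with vehicle and 1570 CPM at 50 µM (adjusted p = 0.987), beside the fall of *Gpr35*. *Arrb1*, an arrestin gene, had a log2 fold change of -0.08 (adjusted p = 0.626).

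Of 18 other receptors for metabolites, 11 were tested, and 3 rose and 2 fell at 50 µM against vehicle. *Gpr84*, a receptor gene for medium-chain fatty acids, fell from 65.5 to 37.4 CPM, a log2 fold change of -0.80 (adjusted p = 0.000807). *Ffar2*, a receptor gene for short-chain fatty acids, fell from 80.3 to 55.9 CPM (-0.52, adjusted p = 0.00118). *Vdr* rose from 62.2 to 80.3 CPM (0.38, adjusted p = 0.0454). *Ffar1* had a log2 fold change of 2.48 (adjusted p = 0.0167) but only 1 to 25 counts per library. *Gpr84* and *Ffar2* were also lower at 50 µM than at 10 µM (-0.55 and -0.35), and *Ahr*, the aryl hydrocarbon receptor gene, was higher (0.31, adjusted p = 0.00848).

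Of 5 partners of PXR, 4 were tested, and none was called against vehicle at either dose or had an unadjusted p under 0.05. *Rxra*, its dimerization partner, was lower at 50 µM than at 10 µM (log2 fold change -0.33, adjusted p = 0.00651). Of 16 PXR target genes, 7 were tested and 7 had no read in any library, among them *Cyp3a11*, the cytochrome P450 gene most used as a PXR readout in mouse liver. *Abcc3*, an efflux transporter gene, rose from 12.0 to 21.7 CPM at 50 µM against vehicle (0.86, adjusted p = 0.000618). *Abcb1b*, another efflux transporter gene, fell from 5.32 to 3.57 CPM (-0.57, adjusted p = 0.0333).

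**Figure D5:**
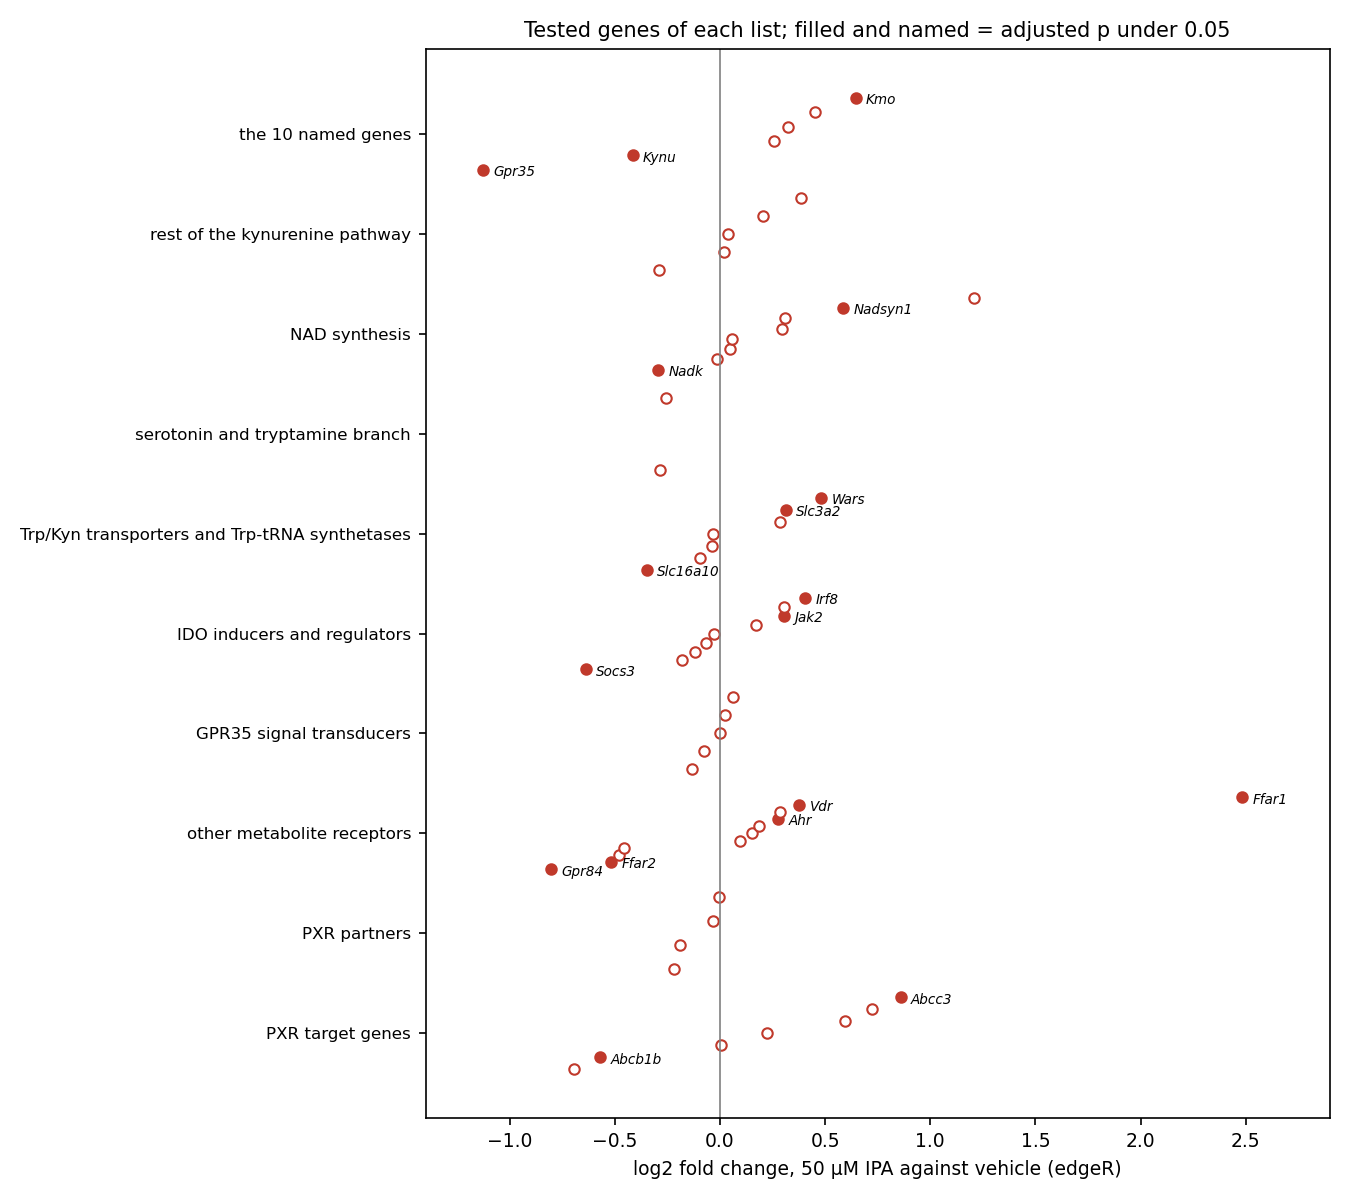
Log2 fold changes at 50 µM against vehicle (edgeR) for each tested gene of the 10 named genes and of the 9 lists around them, with filled and named points for an adjusted p under 0.05. Filled points lie on both sides of 0 in each list that has any, and the GPR35 signal transducers lie close to 0.

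Markers of cell types moved with the 50 µM group as well. Neutrophil markers summed to between 20124 and 28443 CPM with vehicle, 18642 and 21657 CPM at 10 µM and 14126 and 19709 CPM at 50 µM, and 6 of 10 fell at 50 µM against vehicle, the most *Elane* (log2 fold change -1.29) and *Mpo* (-1.02). Ly6C-high monocyte markers summed to between 2688 and 3426, 3839 and 4927 and 2419 and 3122 CPM. Of these 6 markers 1 rose at 10 µM (*Fn1*) and 3 fell at 50 µM, the most *F13a1* (log2 fold change -1.92) and *Ccr2* (-0.76). The monocyte sum was therefore highest at 10 µM, the dose at which the *Gpr35* level was highest. Their part in the results above was not tested.

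Macrophage markers summed to between 1737 and 1946, 2081 and 2285 and 1761 and 1883 CPM. Against vehicle, 3 of 10 were higher at 10 µM, and at 50 µM 2 were higher and 3 lower. Among the lower were *Apoe* (log2 fold change -1.37) and *Mrc1* (-0.69), and *Mrc1* was among those higher at 10 µM (0.62, adjusted p = 0.0375). *Adgre1*, named after its value was seen, was among the higher at 50 µM (0.68, adjusted p = 7.48e-05). Dendritic cell markers summed to between 592 and 738, 608 and 812 and 948 and 1248 CPM, and 5 of 10 rose at 50 µM. Among them were *Clec9a* (log2 fold change 1.34) and *Batf3* (6.43 CPM with vehicle and 14.7 CPM at 50 µM). *Clec9a* was low, with 0.817 CPM with vehicle, 2.08 CPM at 50 µM and 14 to 60 counts per library. B cell markers summed to between 19.3 and 27.7, 24.2 and 34.4 and 38.1 and 60.9 CPM, and 5 of 6 tested rose, among them *Pax5* (1.31). Most of the dendritic sum was the chemokine gene *Ccl22*, with a mean of 471 CPM with vehicle and 850 CPM at 50 µM. *Cd209a*, another marker of that list, had a log2 fold change of -0.97 (adjusted p = 0.0546). Both were named after their values were seen. Of 7 tested mast cell and basophil markers 1 rose (*Gata2*, 1.15) and 1 fell (*Kit*, -0.44), and of 6 eosinophil markers 1 rose (*Ccr3*, 1.61) and 1 fell (*Ear1*, -0.91). No tested T and NK cell or erythroid marker was called in any comparison or had an unadjusted p under 0.05. The part of these markers in the changes of *Gpr35*, *Kmo* and *Kynu* was not tested.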

How the data were processed

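Of the 3 culture groups (vehicle, 10 µM and 50 µM IPA), 4 RNA-seq libraries each were used. Samples were grouped by their treatment labels. At 10 µM, replicates 2 and 3 carry the same title, so replicate 3 was identified by its library name. Per the study's methods, Atropos was used for trimming, hisat2 for alignment to mm10 and featureCounts for counting on Ensembl genes, and the submitters' processing notes list HISAT2 2.2.1 and featureCounts 2.0.1. The values the authors deposited are raw counts per gene, whole numbers without normalization or filter. Whether strand was used in counting is not given in the sources used here. No library was a copy of another in its group.

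The filter kept 14894 genes with over 0.5 CPM, relative to library totals, in 2 or more of 12 libraries. Each pair of groups was tested on its 8 libraries with edgeR 4.0.16 in R 4.3.3 (TMM, glmQLFit and glmQLFTest, no replicate block), with Benjamini-Hochberg adjustment over all genes and a threshold of 0.05. The scripts were tested on simulated data. Alternatives were DESeq2 1.42.0, limma-voom (limma 3.58.1), DESeq2's size factors, omitting the filter, requiring 10 counts in each library, all 12 libraries in the fit, a replicate block, and leaving out each library. The slope of log2 CPM on log2 exon length as a covariate was added after seeing the data. Positions, exon lengths and overlaps are from GENCODE M21 (GRCm38), promoter sequences from RefSeq.

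The members and the lists were chosen with earlier results of these data known. Named genes are the 10 members, per list and comparison the called genes (at most the 4 with the largest change) or up to 2 of the most abundant, up to 2 called genes per marker list, and the 3 nearest profiles of the 2 tested members with the largest range of group means. A marker gene that this rule names is not reported here.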

Additional observations from a re-analysis of the deposited data

Results flagged for a closer look

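The change of *Gpr35* at 50 µM differed from its change at 10 µM, both taken against the same vehicle libraries, by -1.51 on the log2 scale (edgeR's test of 50 µM against 10 µM, adjusted p = 1.31e-08, all 4 libraries at 50 µM lower). Its values against vehicle were 0.37 at 10 µM and -1.13 at 50 µM. For *Kmo* the difference was 0.73 (adjusted p = 0.000586, all 4 libraries at 50 µM higher).

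Of 18 checks for a single library far from the other 3 of its group (6 genes in 3 groups), 2 were positive, and chance gives about 1 in 20. The *Gpr35* level in replicate 3 of the vehicle group, 47.1 CPM, was above the other 3, which lay between 39.9 and 40.5 CPM. The *Haao* level in replicate 4 of the 10 µM group, 19.7 CPM, was below the other 3, which lay between 21.2 and 21.5 CPM.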

How the results depend on the processing

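The changes of *Gpr35* and *Kmo* at 50 µM kept their direction and passed the threshold in all 16 alternatives, against vehicle and against 10 µM. At 10 µM against vehicle, 1 of the 6 genes (*Gpr35*) was called with DESeq2, with no filter, with all 12 libraries in the fit and with the exon length slope as a covariate, and 0 in each fit that left out a library or with the replicate block. The number of all genes called there was 250 with DESeq2, 150 with no filter, 118 with all 12 libraries, 374 with the exon length slope and 3 with the replicate block, and it was 4 to 122 with 1 library left out, lowest without replicate 2 of the 10 µM group and highest without replicate 4 of the vehicle group. At 50 µM against vehicle, leaving out 1 library gave 2 to 4 of the 6 genes and 1248 to 2689 of all genes, lowest without replicate 3 of the vehicle group. At 50 µM against 10 µM it gave 2 to 3 of the 6 genes and 1604 to 2269 of all genes. With no filter, 4 of the 6 (*Kynu* and *Haao* in addition) and 2651 of all genes were called there, and with the exon length slope 3 of the 6 and 3471 of all genes. *Haao* at 50 µM against vehicle was called with the replicate block (adjusted p = 0.0299), and the block changed no other call of the 6 genes. The cause of these shifts was not tested.

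Some changes that were not called turned their direction. With 1 library left out, that of *Kynu* at 10 µM against vehicle ranged from -0.22 to 0.0020 (highest without 10 µM replicate 4). That of *Ido1* at 50 µM against vehicle ranged from -0.18 (without 50 µM replicate 2) to 0.67 and was -0.39 with limma-voom, and against 10 µM it ranged from -0.76 to 0.093 (highest without 50 µM replicate 4). *Ido1* could not be tested with at least 10 counts in every library. All 36 mean levels moved by less than 1 SD under other scalings. The labels do not say whether cultures with the same replicate number were matched across doses. Same-numbered libraries had correlations between -0.24 and 0.14, and a library matched its own number best in 7 of 24 cases, so a pairing was neither shown nor excluded. With 4 libraries a group and at most 17 counts, depth limits what can be said of *Ido1*, *Ido2*, *Tdo2*, *Il4i1* and *Nr1i2*.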
